A study of Mus musculus with 6 samples.

Results

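The genes described here are 10 components of transforming growth factor beta (TGF-beta) signalling: the ligand Tgfb1, the latency protein Ltbp1, the receptors Tgfbr1, Tgfbr2, Tgfbr3 and Acvr1, the signal carriers Smad2 and Smad3, their partner Smad4 and the inhibitor Smad7. They were taken by gene name from the array annotation, where all 10 were found among 27376 names, and they were read by 16 of the 41174 non-control probes. The RNA was that of liver CD8+ T cells from C57BL/6 females, 13 to 14 weeks old. The 3 TG samples were from dnTGFβRII mice, which carry a dominant negative TGF-beta receptor II. The 3 TGC3 samples were from dnTGFβRII CXCR3-/- mice, which carry the same transgene and lack the chemokine receptor CXCR3. Every sample therefore holds the dominant negative receptor, and no sample with an intact pathway was compared. In the dnTGFβRII strain as generally described, a truncated human receptor is expressed in T cells from a CD4 promoter; the labels used here name neither the promoter nor the truncation. The study asked what CXCR3 does in the activation and proliferation of CD8+ T cells, and the comparison below asks how the RNA of these 10 genes differed when CXCR3 was absent.

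TGF-beta1 is made as a latent complex, in which proteins of the LTBP family tether it to the extracellular matrix until it is released. The free ligand binds the type II receptor TGFBR2, which phosphorylates the type I receptor TGFBR1; TGFBR1 then phosphorylates SMAD2 and SMAD3, which join SMAD4 and enter the nucleus, while SMAD7 feeds back to shut the receptor off. In T cells this pathway restrains activation, effector differentiation and proliferation, and T cells of mice with a dominant negative type II receptor escape that restraint.

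One-colour arrays were used, 1 for each sample; TGC3 1 to TGC3 3 and TG 1 to TG 3 name them below. The scanner software marked 58.9% to 63.8% of an array's probes as well above background, that is, brighter than the local and negative-control signal. The number of arrays limits the precision. Separate mice are not stated in the labels, so the p-values cover the spread among these 6 arrays, which may be technical. The genotypes were hybridised on different slides and scanned apart, so genotype and slide cannot be told apart for any value below. Cxcr3 read 23.8 to 33.0 intensity units on the TGC3 arrays and 66107 to 73352 on the TG arrays, as the labels state. All 10 CD8 T cell markers examined, Cd8a, Cd8b1 and Cd3e among them, lay well above background on all 6 arrays. All 10 had a change below 0, with a median of -0.17 and summed scaled signals of 961 to 1055 in TGC3 and 1051 to 1166 in TG; Cd5 and Cd3g passed as lower (limma adjusted p = 0.0380 and 0.0468). Markers of other cell types were also examined, and some lay above background. The endothelial markers Cdh5, Kdr, Lyve1 and Oit3, the B cell marker Pax5 and the dendritic cell markers Clec9a, Cd209a and Siglech did so on none of the 6 arrays. Of all genes read by their brightest tested probe, 16.1% were higher and 8.53% lower in TGC3. Of 10 neutrophil markers on the array 4 were tested, with a summed scaled signal of 1.63 to 8.03 in TGC3, highest on TGC3 2, and 0.11 to 0.17 in TG; S100a9 was at least 107-fold higher (limma adjusted p = 0.00259). Of 12 macrophage and Kupffer cell markers 7 were tested, with sums of 1.26 to 3.36 in TGC3 and 0.821 to 0.987 in TG. Of 11 endothelial markers 5 were tested, with sums of 0.80 to 0.868 in TGC3 and 0.667 to 0.757 in TG. Of these, 2 were higher, Stab2 by 0.72 and Clec4g by 0.84 (limma adjusted p = 0.00305 and 0.00266). Pecam1, the brightest endothelial marker tested, changed by -0.01. Of 4 B cell markers tested 3 were higher, although the sums overlapped (5.43 to 6.17 in TGC3 and 5.32 to 6.56 in TG). Among them Ms4a1 was at least 3.52-fold higher, with no TG array well above background, so it met the filter through its TGC3 arrays alone. Of 6 dendritic cell markers tested 3 were higher, with sums of 15.5 to 25.4 in TGC3 and 19.3 to 21.8 in TG. Of 7 NK and innate lymphoid cell markers tested 2 were higher, Il1rl1 at least 3.70-fold, and 3 had a change below 0. Among those 3, Ncr1 changed by -0.46 and Klra8 by -0.41 without passing (limma adjusted p = 0.238 and 0.151). The sums were 45.9 to 51.6 in TGC3 and 38.2 to 43.4 in TG, and most of each came from Il7r alone (scaled log2 means of 5.17 and 4.95). Whether RNA of each of these cell types was present, and its part in the values below, was not tested.

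The results rest on short stretches of each transcript, so 4 of the 60-base probes are shown: that of Ltbp1, the member that differed most, that of the ligand, and those of both receptor chains that bind it. Each is the whole oligonucleotide as the array files give it, 5′ to 3′, with no base singled out in capitals.
Ltbp1 (A_52_P189946): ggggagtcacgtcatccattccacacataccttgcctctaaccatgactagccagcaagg
Tgfbr1 (A_51_P280137): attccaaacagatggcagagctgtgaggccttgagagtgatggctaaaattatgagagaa
Tgfbr2 (A_52_P251403): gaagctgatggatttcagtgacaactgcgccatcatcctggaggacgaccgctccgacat
Tgfb1 (A_51_P390715): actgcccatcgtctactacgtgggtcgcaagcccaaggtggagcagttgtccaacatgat
The Ltbp1 probe begins at base 1691 of NM_019919, far from the second Ltbp1 probe at base 5660. The Tgfbr1 probe covers 3659 bases of mm9 chromosome 4 (47419898 to 47423556), so it spans a gap in the genome as an exon junction does. The Tgfbr2 probe is designed on a mouse complementary DNA (AF406755); whether any Tgfbr2 probe also binds RNA of the transgene was not tested. Positions here and below are those of mm9 in the array files; exon and UTR annotation of that build was not used here.

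Of the 16 member probes, 15 were well above background on 3 or more of the 6 arrays and were tested. Ltbp1 and Acvr1 were higher in TGC3, Smad3 was lower by 1 of its 2 probes, and the other 12 probes did not pass a Benjamini-Hochberg adjusted p of 0.05 in limma. Ltbp1 rose 2.41-fold and Acvr1 1.51-fold, while Smad3 read 0.828 of its TG level. Over all 25103 probes tested, 22.1% passed, 13.7% higher and 8.37% lower in TGC3, so 3 of 15 members (20%) is near the share of all probes. The 2 groups did not overlap for 5 member probes (33.3%), against 44.3% of all probes. The median change over the 15 probes was -0.12 on the log2 scale, beside -0.02 over all probes. Changes lay below 0 for 9 of the 15, beside 52.9% of all probes. Centring each array on its median in place of its 75th percentile moved the median change of all probes to -0.19, the share of calls that were higher from 62.1% to 23.4%, and the member calls to 2 higher and 6 lower. The lower calls were then both Smad3 probes and the probes of Tgfb1, Tgfbr1 (A_51_P280137), Tgfbr2 (A_51_P450573) and Smad4 (A_52_P611867). Relative to the median of all probes, which this centring leaves as it was by construction, the changes of Ltbp1, Acvr1 and Smad3 (A_52_P352277) were 1.29, 0.61 and -0.25; with quantile scaling they were 1.07, 0.41 and -0.19.

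**Figure D1:**
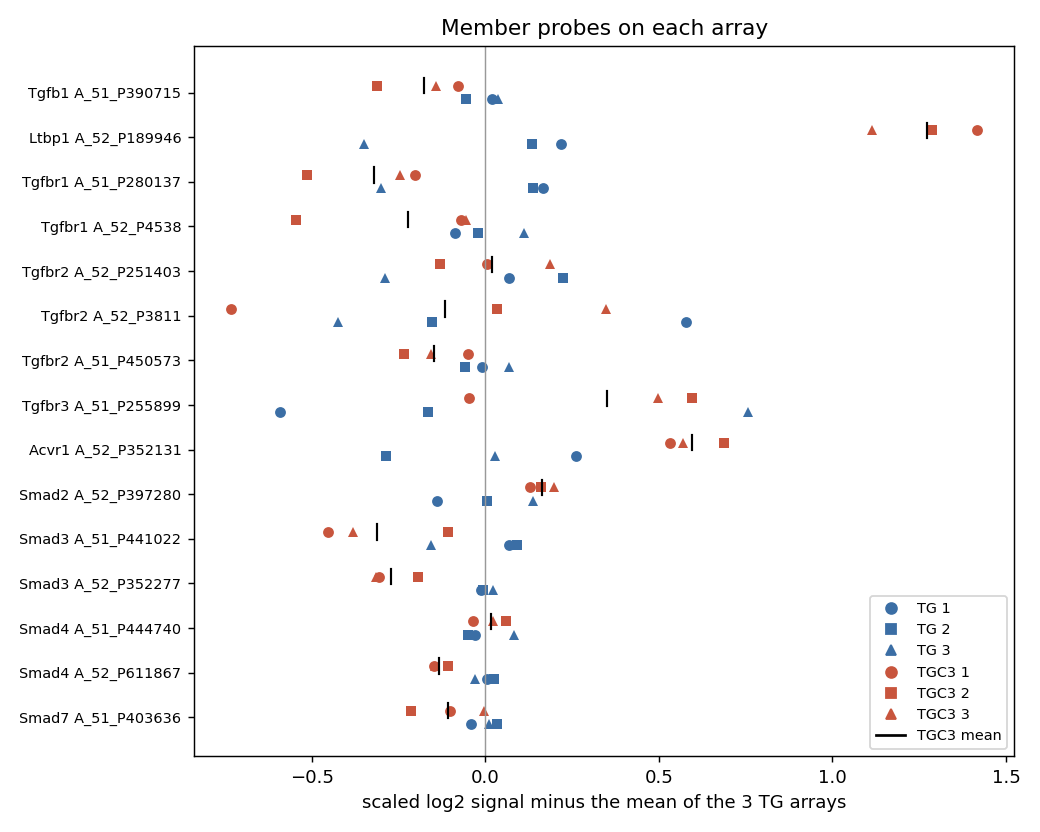
The horizontal axis gives the scaled log2 signal of each array minus the mean of the 3 TG arrays, with a line for each tested member probe; blue symbols are TG arrays, red symbols TGC3 arrays, and black bars the TGC3 mean. The red and blue symbols of Ltbp1 and Acvr1 lie apart, with TGC3 to the right, and those of Smad3 A_52_P352277 lie apart with TGC3 to the left, while most other probes overlap.

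The ligand gene Tgfb1 was strongly expressed and differed little. Its probe (NM_011577, mm9 chromosome 7, 26489877 to 26489936) was printed as 10 spots, which were averaged. Its TGC3 readings, in replicate order, were 1293, 1130 and 1296 intensity units, and those of TG were 1307, 1265 and 1462. Scaled to the 75th percentile of each array, these became log2 levels of 1.12, 0.89 and 1.06 for TGC3 against 1.22, 1.14 and 1.24 for TG. All 3 TGC3 values lay below the TG values, by a gap of only 0.02 between the closest arrays. The change was -0.18 ± 0.08 (standard error from limma, adjusted p = 0.166), with a 95% interval of -0.37 to 0.02.

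Ltbp1, which holds latent TGF-beta in the matrix, had the largest change of the members. Its probe at base 1691 (mm9 chromosome 17, 75624653 to 75624712, plus strand) read 37.4, 35.1 and 31.8 intensity units in TGC3 and 15.4, 14.8 and 11.5 in TG. Every TGC3 array was higher than every TG array, and the lowest TGC3 array exceeded the highest TG array by 0.90 on the scaled log2 scale. The scaled log2 means were -4.13 ± 0.15 in TGC3 and -5.41 ± 0.31 in TG (SD, n = 3 each), a change of 1.27 ± 0.17 in limma (adjusted p = 0.00576). TG 3 was not well above background, so the fold is also given as a bound: Ltbp1 was at least 2.24-fold higher in TGC3, from 3 TGC3 and 2 TG arrays that measured it. The second Ltbp1 probe (A_51_P281716, bases 5660 to 5719, mm9 chromosome 17, 75790058 to 75790191) was above background on no array, at 2.54 to 3.90 intensity units, and gives no second reading of the change.

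The size of the Ltbp1 change depended on how background was handled. With a normexp background correction with an offset of 50 and aberrant backgrounds replaced, it was 0.27 (adjusted p = 0.0354), and with 7 aberrant spot backgrounds of TG 3 left in, it turned to -0.64 (adjusted p = 0.680). Ltbp1 passed without any 1 array, with limma adjusted p of 0.00963 to 0.0210. Platelets and stellate cells also make LTBP1. Platelet markers Pf4 and Ppbp, and the stellate and fibroblast markers Dcn and Pdgfrb, were above background on none of the 6 arrays. Of 9 platelet markers on the array 3 were tested, with a summed scaled signal of 0.163 to 0.193 in TGC3 and 0.130 to 0.163 in TG and a median change of 0.23. Of 12 stellate and fibroblast markers 4 were tested, with sums of 26.9 to 33.2 in TGC3 and 31.0 to 34.1 in TG and a median change of -0.15; nearly all of that sum came from Acta2, which smooth muscle also expresses and which changed by -0.16 (limma adjusted p = 0.268). The part of these cells, and of neutrophils and macrophages, in the Ltbp1 value was not tested. In bulk RNA, more cells of a type and more RNA per cell cannot be told apart.

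The type I receptor gene Tgfbr1 was read by 2 probes, both lower on average in TGC3 without passing. The probe shown above read 84.5, 70.0 and 86.0 intensity units in TGC3 and 103, 103 and 82.4 in TG. The groups overlapped, since TG 3 lay below TGC3 1 and TGC3 3 after scaling. The change was -0.32 ± 0.15 (limma adjusted p = 0.181). The other probe (A_52_P4538, bases 5290 to 5349 of NM_009370, mm9 chromosome 4, 47427421 to 47427480) was much brighter, at 1040, 769 and 1101 intensity units in TGC3 and 971, 1036 and 1231 in TG. Here TGC3 2 stood below the other 5 arrays. The change was -0.22 ± 0.15 (limma adjusted p = 0.311), and without TGC3 2 it was -0.064. The 95% intervals of the 2 probes were -0.69 to 0.05 and -0.58 to 0.13, which reach down to 0.619 and 0.669 of the TG level.

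Tgfbr2, the endogenous counterpart of the dominant negative receptor, did not differ past the threshold by any of its 3 probes. The probe near the end of NM_009371 (A_51_P450573, bases 4386 to 4445, mm9 chromosome 9, 115997155 to 115997214, minus strand) read 15130, 13685 and 14735 intensity units in TGC3 and 14721, 14507 and 17161 in TG. The groups overlapped narrowly, with TG 2 below TGC3 1. Its change was -0.15 ± 0.08 (limma adjusted p = 0.204), with a 95% interval of -0.33 to 0.03 whose lower end is 0.795 of the TG level. The dimmer probe shown above, A_52_P251403, (bases 620 to 679 of AF406755, mm9 chromosome 9, 116019196 to 116019255) read 61.9, 57.9 and 73.7 units in TGC3 and 61.1, 69.4 and 52.7 in TG. These values overlapped, and the change of 0.02 ± 0.15 (limma adjusted p = 0.938; 95% interval -0.35 to 0.39) took the other sign under quantile, median and cyclic loess scaling. The third probe (A_52_P3811 on AK090393, mm9 chromosome 9, 116039845 to 116039904) was above background on 2 TGC3 arrays and 1 TG array and changed by -0.12 ± 0.35 (limma adjusted p = 0.837).

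Tgfbr3, the co-receptor betaglycan that presents ligand to TGFBR2, was near background and variable. Its probe (A_51_P255899, NM_011578, mm9 chromosome 5, 107537905 to 107537964) read 19.8, 31.7 and 30.3 intensity units in TGC3 and 12.8, 17.6 and 36.0 in TG. The highest and the lowest of the 6 arrays were both TG. The change of 0.35 ± 0.36 did not pass (limma adjusted p = 0.519), and its 95% interval ran from a fold of 0.697 to 2.33. The change was 0.053 without TG 1 and 0.73 without TG 3.

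Acvr1 encodes ALK2, a type I receptor used by bone morphogenetic proteins and activins that signals through SMAD1 and SMAD5 rather than SMAD2 and SMAD3. Its probe (A_52_P352131, bases 2246 to 2305 of NM_007394, mm9 chromosome 2, 58299596 to 58299655, minus strand) read 34.4, 39.5 and 37.1 intensity units in TGC3 and 27.0, 18.8 and 25.4 in TG, above background on all 6 arrays. All TGC3 arrays were higher than all TG arrays, and TG 2 was the lowest. The scaled log2 means were -4.04 ± 0.08 in TGC3 and -4.64 ± 0.27 in TG (SD, n = 3 each), a change of 0.60 ± 0.14 in limma (adjusted p = 0.0317). The call was lost when any 1 array other than TG 1 was left out (adjusted p = 0.0549 to 0.0796), with quantile or cyclic loess normalization (0.0828 and 0.0876), with the deposited table (0.0815), without a filter (0.0751) and with the repaired normexp correction (change 0.15, adjusted p = 0.108). It turned to -0.70 with the unrepaired one (adjusted p = 0.672). As with Ltbp1, the part of RNA from other cells was not tested.

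Smad3, a carrier of the TGF-beta receptor signal that binds DNA directly, was lower in TGC3 by 1 of its 2 probes. The brighter probe (A_52_P352277, bases 4473 to 4532 of NM_016769, mm9 chromosome 9, 63495131 to 63495190, minus strand) read 1758, 1956 and 1832 intensity units in TGC3 and 2037, 2086 and 2304 in TG. The groups did not overlap, and the TG arrays lay close together after scaling, at 1.86, 1.87 and 1.89 on the log2 scale against 1.57, 1.68 and 1.56 in TGC3. The change was -0.27 ± 0.06 (limma adjusted p = 0.0296), a decrease of 17.2%. The dimmer probe (A_51_P441022, bases 2112 to 2171, mm9 chromosome 9, 63497492 to 63497551) read 180, 236 and 199 units in TGC3 and 245, 254 and 231 in TG, where TGC3 2 overlapped TG 3. Its change of -0.31 ± 0.12 did not pass (limma adjusted p = 0.108). The call of the brighter probe was lost when any 1 array other than TGC3 2 was left out (adjusted p = 0.0716 to 0.0970), with cyclic loess normalization (0.0604), without a filter (0.0840) and with the unrepaired normexp correction (0.983), while the dimmer probe passed without TGC3 2 (0.0436).

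Smad2, which carries the same receptor signal as Smad3, did not pass. Its probe (A_52_P397280, NM_010754, mm9 chromosome 18, 76464620 to 76464679) read 1459, 1531 and 1605 intensity units in TGC3 and 1143, 1289 and 1531 in TG. After scaling, only TG 3 reached the TGC3 range. The change was 0.16 ± 0.09 (limma adjusted p = 0.218), with a 95% interval of -0.04 to 0.37, and it took the other sign (-0.012) when arrays were centred on their median. The difference between Smad2 and Smad3 was not tested.

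Smad4, the partner shared by all receptor-activated SMADs, was read by 2 bright probes. The first (A_52_P611867, from base 3243 of NM_008540, mm9 chromosome 18, 73798705 to 73798764) read 7534, 7961 and 7911 intensity units in TGC3 and 7918, 8188 and 8522 in TG. After scaling, the 3 TGC3 arrays lay below the 3 TG arrays by a gap of 0.08, with a change of -0.13 ± 0.06 that did not pass (limma adjusted p = 0.144). The second (A_51_P444740, from base 2261; its listed genome position covers only 35 bases) read 3258, 3571 and 3556 units in TGC3 and 3088, 3109 and 3685 in TG. Its groups overlapped, with a change of 0.02 ± 0.07 (limma adjusted p = 0.892; 95% interval -0.15 to 0.18) that became -0.16 under median centring.

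Smad7, the inhibitory SMAD that TGF-beta itself induces, serves as a readout of the pathway as well as its brake. Its probe (A_51_P403636, NM_001042660, mm9 chromosome 18, 75555371 to 75555430) read 2549, 2426 and 2864 intensity units in TGC3 and 2516, 2700 and 2876 in TG. TGC3 3 lay within the TG values after scaling and TGC3 2 was the lowest array. The change was -0.11 ± 0.07 (limma adjusted p = 0.341), and its 95% interval corresponds to 0.819 to 1.05 of the TG level.

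**Figure D2:**
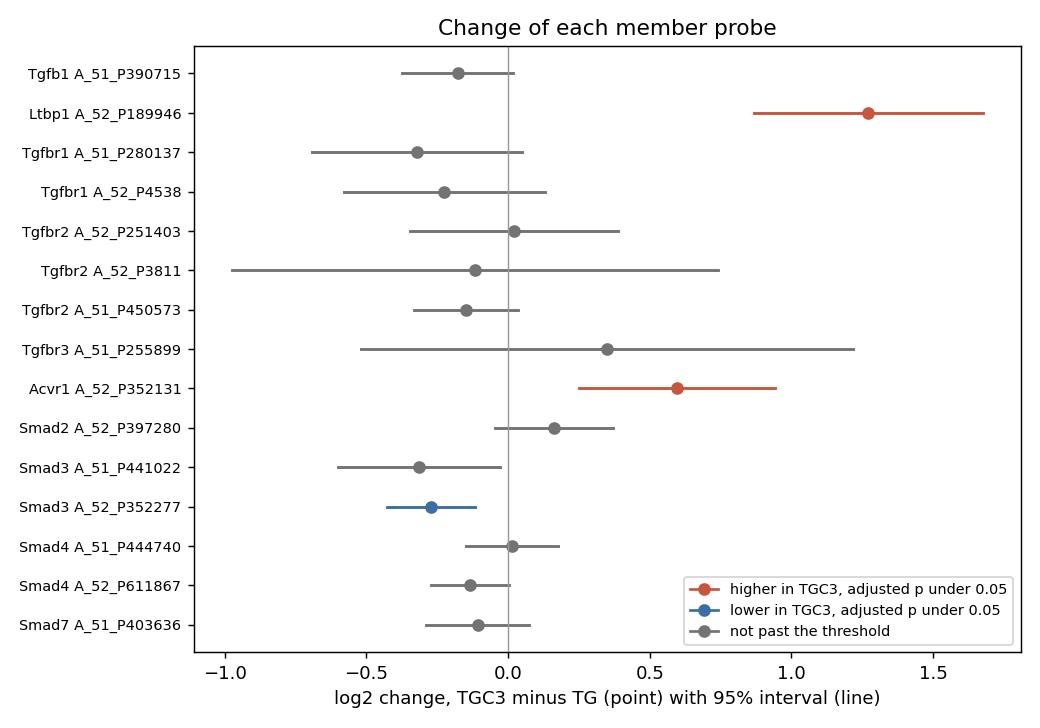
Points give the log2 change (TGC3 minus TG) of each tested member probe on the horizontal axis and lines its 95% interval from limma, n = 3 arrays per group. The intervals of Ltbp1 (0.87 to 1.68) and Acvr1 (0.25 to 0.94) lie above 0 and that of Smad3 A_52_P352277 (-0.43 to -0.12) below it; Smad3 A_51_P441022 also lies below 0 (-0.60 to -0.03) but did not pass after adjustment, and the widest intervals are those of the dim probes of Tgfbr2 and Tgfbr3.

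Smad3, Smad4, Tgfbr1 and Tgfbr2 each had several tested probes, which form 6 pairs. Within a pair the changes differed by at most 0.17 in size. An exact permutation test over 3 against 3 arrays cannot go below p = 0.1, so at this size it could not have shown that probes of a gene differ.

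Both members that rose were dim. When all tested probes were ranked by mean signal and divided into 10 equal classes, Ltbp1 fell in the dimmest class and Acvr1 in the next. In those classes 23.3% and 24.1% of all probes were higher in TGC3 and 5.54% and 5.26% lower, with median changes of 0.23 and 0.17. Ltbp1 stood well above its class median, and 2.11% of all tested probes had a larger change in either direction; for Acvr1 that share was 11.1%. The brighter Smad3 probe fell in the eighth class, where 6.14% were higher, 10.1% were lower and the median was -0.07, and 34.8% of all tested probes changed more. The part that signal level plays in these 3 calls was not tested.

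**Figure D3:**
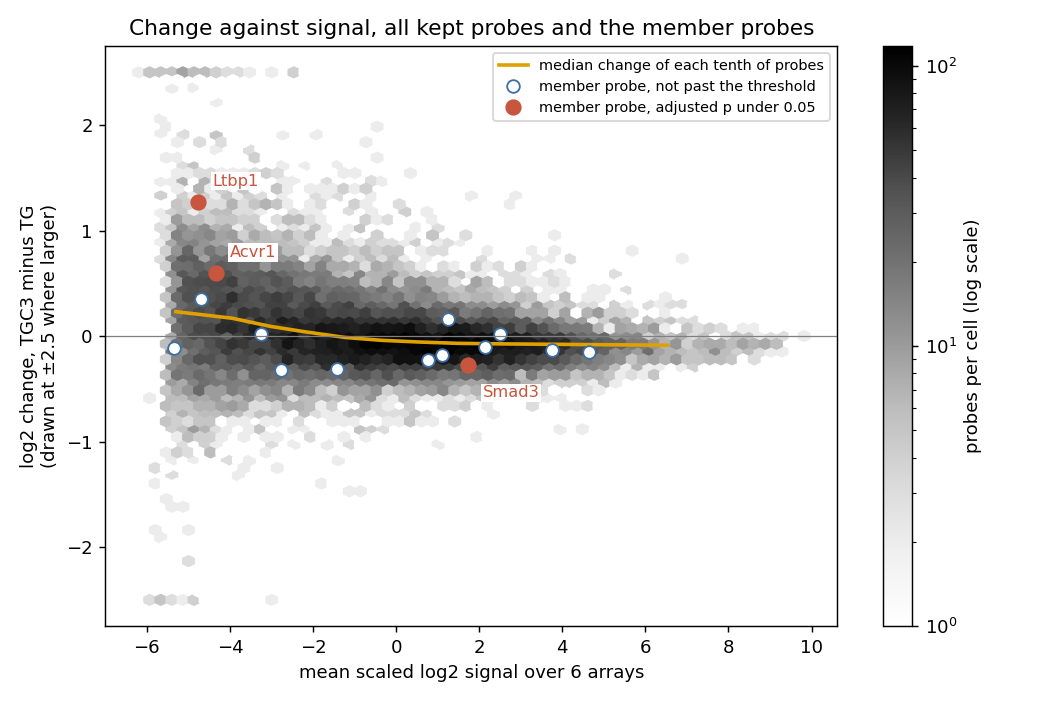
Grey cells count all tested probes by mean scaled log2 signal over the 6 arrays (horizontal axis) and log2 change, TGC3 minus TG (vertical axis); the yellow line joins the median change of each of 10 signal classes. Ltbp1 and Acvr1 (filled, upper left) lie among dim probes, whose median change is above 0 (0.23 and 0.17), Smad3 (filled, right) among bright ones, and open circles mark the 12 member probes that did not pass.

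The wider pathway was described through 6 lists of genes, each gene read by its brightest tested probe. Over the 84 genes tested of 106 on the array, 9 were higher and 11 lower in TGC3 (23.8%), beside 24.6% of all 16395 genes read the same way, 16.1% higher and 8.53% lower. The median change was -0.06, against -0.01 over all genes. With median centring the counts were 5 higher and 24 lower, and without TG 1 or without TG 2 they were 5 and 5. Genes that belong to 2 lists are counted in each.

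Among ligands and genes of their activation, 2 of 11 tested were higher and 2 lower, beside 16.1% and 8.53% of all genes. Inhbb, the beta B chain of activins and inhibins, was at least 1.30-fold higher and is 1 of the 2 counted as higher. No TG array was well above background for Inhbb. It met the filter through its TGC3 arrays alone, so only the bound is given. Ltbp4, a relative of Ltbp1, rose 1.30-fold (0.38 ± 0.08, limma adjusted p = 0.0206). Gdf11, a ligand that signals through activin receptors, fell to 0.666 of its TG level (-0.59 ± 0.15, limma adjusted p = 0.0387). Lrrc33, which anchors latent TGF-beta on the cell surface, fell to 0.771 (-0.38 ± 0.07, limma adjusted p = 0.0136). Furin, the protease that cleaves the TGF-beta precursor, changed by 0.09 ± 0.23 (limma adjusted p = 0.801), and Bmp7 by 0.35 ± 0.14 (limma adjusted p = 0.113). Of the other LTBP genes, the brighter Ltbp3 probe did not pass (0.18 ± 0.10, limma adjusted p = 0.246) and Ltbp2 was not tested for lack of signal. The higher count fell to 1 when TG 1 was left out and to 0 when TGC3 1 or TG 2 was, and the lower count was 1 without TGC3 3 or any 1 TG array.

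Of 6 other receptors of the family tested, 1 was lower by its brightest probe (2 without TGC3 2 or without TG 2). Over all genes 16.1% were higher and 8.53% lower, which also stands beside the SMADs and carriers that follow. Eng, the co-receptor endoglin, fell to 0.757 of its TG level (-0.40 ± 0.07, limma adjusted p = 0.0128). Acvr1b, the activin type I receptor ALK4, did not pass by its brighter probe (-0.28 ± 0.08, limma adjusted p = 0.0582) but was lower by its dimmer one (-1.06, adjusted p = 0.0306). Bmpr2, the type II receptor that can pair with ACVR1, changed by 0.39 ± 0.12 (limma adjusted p = 0.0702). Of 8 other SMADs and carriers tested, 1 was higher and 2 lower; the lower count was 0 without TG 1 or TG 2, 1 without any other 1 array, and 1 with quantile or cyclic loess scaling, the deposited table or no filter. Smad5 and Smad1, the carriers activated by ALK2, fell, to 0.727 (-0.46 ± 0.09, limma adjusted p = 0.0151; 2 of 3 probes passed) and to 0.751 (-0.41 ± 0.11, limma adjusted p = 0.0461; 1 of 2 probes passed). Foxh1, a DNA-binding partner of SMAD2, rose 1.35-fold (0.43 ± 0.07, limma adjusted p = 0.00936). Ipo8 and Ipo7, importins that carry SMADs, changed by -0.12 ± 0.07 and 0.29 ± 0.12 by their brightest probes (limma adjusted p = 0.258 and 0.138). Of the 3 other Ipo7 probes 1 was higher (0.45, limma adjusted p = 0.0167).

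Among 29 negative regulators and cofactors, 1 was higher and 4 lower, beside 16.1% and 8.53% of all genes. The lower count was 1 without TGC3 1, TG 1 or TG 2, 2 without TGC3 3 or TG 3, 2 with quantile or cyclic loess scaling or the deposited table, 9 with median centring, and 0 without a filter. Fkbp1a, which binds the type I receptors and keeps them inactive without ligand, rose 1.71-fold (0.78 ± 0.07, limma adjusted p = 0.00251). The repressor Tgif2 fell to 0.688 (-0.54 ± 0.11, limma adjusted p = 0.0185), as did the SMAD repressor Skil to 0.733 (-0.45 ± 0.12, limma adjusted p = 0.0396; 1 of 2 probes) and Pmepa1, a feedback inhibitor that sequesters SMADs, to 0.752 (-0.41 ± 0.12, limma adjusted p = 0.0497; both probes). The kinase gene Hipk2 fell to 0.783 by 1 of 4 probes (-0.35 ± 0.09, limma adjusted p = 0.0329). Ski, the partner of Skil, changed by -0.11 ± 0.06 (limma adjusted p = 0.222) and Sptbn1, an adaptor for SMADs, by -0.25 ± 0.10 (limma adjusted p = 0.128).

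Of 16 genes that TGF-beta raises in T cells or elsewhere, 2 were higher and 2 lower. Of 18 that it lowers in T cells, 3 were higher and 2 lower. The shares over all genes were 16.1% higher and 8.53% lower. On the first list the higher count was 1 without TGC3 1, TGC3 3, TG 1 or TG 3, and the lower count was 0 without TGC3 3, TG 1 or TG 3 and 1 without any other array. On the second the higher count was 1 without TGC3 3, TG 1 or TG 2, and the lower count 1 without TGC3 3 or TG 2. Median centring gave 1 higher and 6 lower on the first list, and 1 and 4 on the second. Without a filter the counts were 1 and 0, and 1 and 1. With quantile scaling they were 2 and 1, and 4 and 2. Skil and Pmepa1, given above, were the 2 lower members of the first list. The higher members were Rgs16, a regulator of G protein signalling (2.03-fold, limma adjusted p = 0.0102), and Junb, an AP-1 subunit (1.44-fold, limma adjusted p = 0.0197; 1 of 2 probes). Id2, an inhibitor of E proteins, changed by 0.06 ± 0.09 (limma adjusted p = 0.692). Itgae, the integrin chain CD103 that TGF-beta induces in tissue-resident CD8+ T cells, changed by -0.54 ± 0.27 and did not pass (limma adjusted p = 0.198). On the second list Itga4, an integrin chain of homing (1.78-fold, limma adjusted p = 0.00147; 5 of 6 probes), Ifng (0.59 ± 0.15 on the log2 scale, limma adjusted p = 0.0416; 1 of 2 probes) and Klf2 (1.24-fold, limma adjusted p = 0.0329; both probes) were higher. Ccr7, the lymph node homing receptor, fell to 0.534 (limma adjusted p = 0.00838) and Fasl, the ligand of the death receptor Fas, to 0.686 (limma adjusted p = 0.0216). The granzyme genes Gzma and Gzmb did not pass, at 0.10 ± 0.31 and -0.29 ± 0.21 (limma adjusted p = 0.844 and 0.348).

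The 5 probes of other genes whose profiles over the 6 arrays were closest to that of Ltbp1 belonged to Hacl1, Rasd1, Tgm5, 2210404J11Rik and 4930506M07Rik. Closeness was the Euclidean distance between log2 profiles centred on their own means, and it ran from 0.16 for Hacl1 to 0.30 for 4930506M07Rik. Their changes were 1.08 to 1.23, and the distance itself favours probes with a change near that of Ltbp1.

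**Figure D4:**
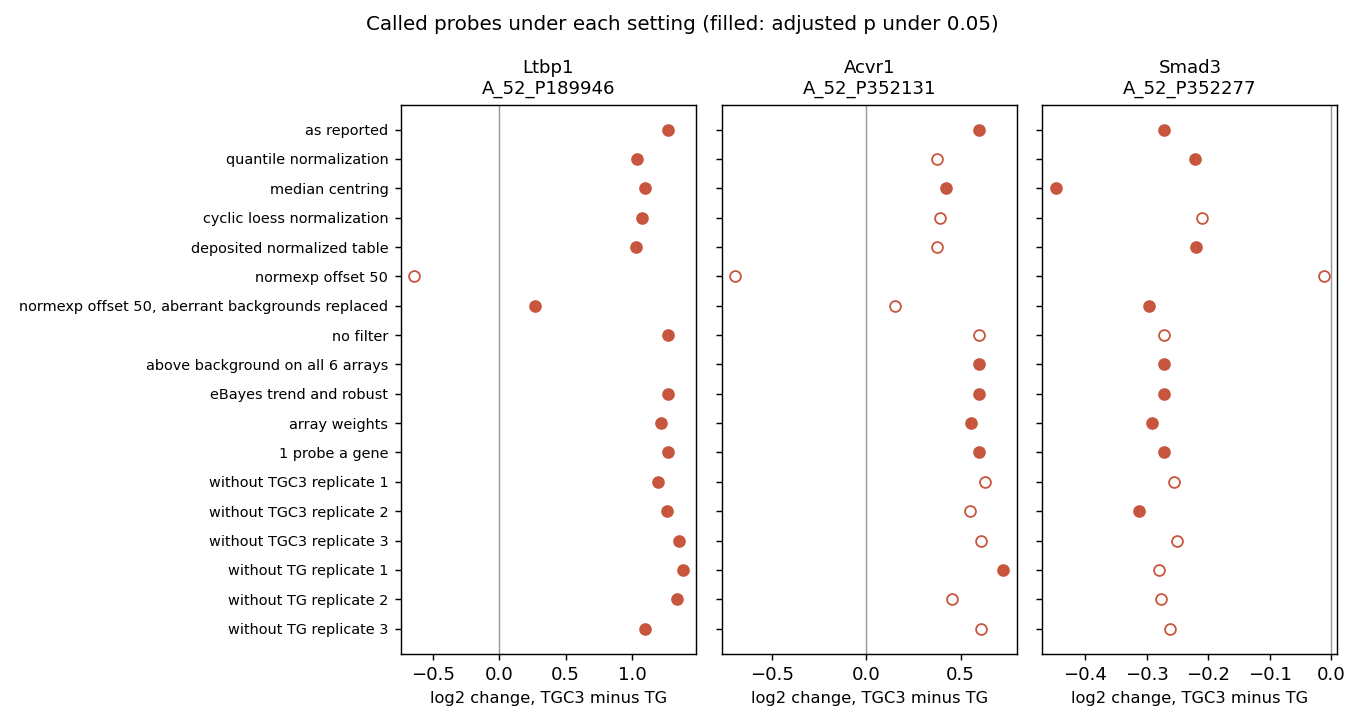
Each panel shows the log2 change (TGC3 minus TG, horizontal axis) of a member probe that passed. Points give it as reported and under each alternative setting except the replicate block, which is not drawn. Filled points have a limma adjusted p under 0.05. Ltbp1 stayed filled under every setting drawn except the unrepaired normexp correction, where it lay at -0.64, while Acvr1 and Smad3 lost the call under several settings, and Ltbp1 has no point with a filter on all 6 arrays.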

How the data were processed

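Liver CD8+ T cell RNA of 6 samples was measured, 1 array each. Agilent Feature Extraction gave the spot values (10.7.3.1 per the file headers, 10.7.1.1 per the submitters' processing notes). The deposited processed intensity had its background subtracted and its spatial trend removed, per the file headers. The authors' deposited table holds log2 values whose 6 columns share a median of 5.57, and each column followed the scanner values (r at least 0.9999). How they were made is not stated in the sources used here. The sorted values of each column differed from those of TGC3 1 by at most 0.0066, as quantile scaling leaves them. The deposited table and quantile scaling are therefore not separate checks. Here, outlier spots were left out (11 probes), spots of a probe averaged on the log2 scale, and the 75th percentile of each array subtracted. The filter asked for a probe well above background on 3 or more of the 6 arrays (25103 of 41163). These were fitted with limma 3.58.1 in R 4.3.3 (lmFit and eBayes, two-sided, Benjamini-Hochberg over all tested probes, threshold 0.05), which was tested on simulated data. No non-control spot was saturated. Where a group had arrays not well above background, a bound was computed with each dim value raised to the lowest signal above background on that array. Such a bound, given as at least so many fold, does not cover the spread among arrays. Accessions of 14 of 16 member probes matched the RefSeq gene table (GRCm38.p6), used for names only. Named genes were all member probes, up to 4 called genes of each pathway list by size of change and its 2 brightest others, leading markers, and 5 profile neighbours; Hipk2, Klf2, Itgae, Ltbp2, Ltbp3 and the CD8, platelet and stellate markers were named after their values were seen. The members, pathway lists and marker lists were chosen with earlier results of these data known. Alternatives covered scaling, the deposited table, background correction, filters, moderation, array weights, a replicate block, 1 probe a gene and leaving out each array.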

Additional observations from a re-analysis of the deposited data

How the results depend on the processing

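The Ltbp1 call held under every alternative that tested its probe except normexp with aberrant backgrounds kept. A filter on all 6 arrays did not test it. The Acvr1 and Smad3 calls were lost under the settings named with them above and with the replicate block (limma adjusted p = 0.0799 and 0.0948). Against 2 members higher and 1 lower as reported, quantile scaling, the deposited table and normexp with replaced backgrounds gave 1 and 1. Cyclic loess, no filter and the replicate block gave 1 and 0, median centring 2 and 6, array weights 2 and 2, and a filter on all 6 arrays 1 and 1. Leaving out 1 array gave 1 to 2 higher and 0 to 2 lower. Over all probes (3441 higher, 2101 lower), the replicate block gave 2143 and 722, leaving out 1 array 2062 to 2965 and 714 to 1989, and the lower count was 7513 with median centring, 776 without a filter and 3486 with array weights. Higher calls were 53.7% of calls with quantile scaling, 49.3% with replaced backgrounds, 76.7% without a filter and 62.1% as reported. Over the pathway genes (9 higher, 11 lower), median centring gave 5 and 24, no filter 4 and 4, the replicate block 5 and 3 (0 lower among negative regulators and cofactors), and leaving out 1 array 5 to 11 and 5 to 11. Normexp with the 7 aberrant backgrounds of TG 3 kept called 0 members, 0 pathway genes, and 0 higher and 1 lower of all probes (limma; 682 at an unadjusted p under 0.05, against 9412 as reported). It turned Ltbp1 to -0.64, Acvr1 to -0.70, Tgfb1 to 0.043, Tgfbr3 to -0.74, Smad7 to 0.22, Smad4 (A_52_P611867) to 0.26 and Tgfbr2 to 0.26 (A_51_P450573) and -0.78 (A_52_P251403), with the cause not tested. Members near 0 changed sign elsewhere: Tgfbr2 A_52_P251403 was -0.14 with quantile scaling and the deposited table, -0.16 with median centring, -0.12 with cyclic loess, -0.061 with replaced backgrounds and -0.027 with array weights, and -0.12 to 0.13 without 1 array. Median centring gave -0.16 for Smad4 A_51_P444740 and -0.012 for Smad2. Without 1 array, Smad4 A_51_P444740 ran from -0.0098 to 0.056 and Tgfbr2 A_52_P3811 from -0.35 to 0.19. Deviations of same-numbered arrays from their group means correlated at -0.0014, -0.04 and -0.10, and 0 of 3 TGC3 arrays correlated best with its own number. The labels do not say that the numbers pair arrays. Correlations among so few arrays cannot exclude a pairing or a shared batch.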
